A study of Oryza sativa with 6 samples.

Results

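The genes described are the phytochromes phyA, phyB and phyC, the cryptochromes CRY1a, CRY1b and CRY2, and PIL13, a transcription factor of the family that phytochromes act on. They were chosen by name and locus identifier, but with earlier results of these data known. All 7 are among the 39477 loci measured. Mature rice (Oryza sativa) leaves were profiled by RNA sequencing at 60 days after germination, in 3 libraries of mutants in which SRL1 was knocked out (srl1-KO) and 3 libraries of the control with no knockout (non-KO). Both genotypes came from a greenhouse held at 30 °C during days and 25 °C during nights. The labels do not give the cultivar, the kind of mutation, the number of knockout lines or the time of day of harvest. Leaves were taken from a single plant, per the labels' protocol, so the libraries of a genotype may not be separate plants, and p-values measure only the spread between these libraries.

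Phytochromes are red and far-red light receptors that carry a bilin chromophore made from haem. In light they enter the nucleus and bind bHLH factors of the PIF class, called PIL in rice, which are then mostly inactivated or degraded. Cryptochromes are flavin-carrying blue light receptors related to DNA photolyases. In rice these receptors are known for their effects on seedling greening, stem elongation and flowering time, and phyB also for effects on leaf shape and water loss.

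Levels are in FPKM, which scales fragments to transcript length and to the mapped fragments of each library, so that genes of different length can be set side by side. SRL1 (Os07g0102300), the targeted gene, was at 1.62, 2.22 and 1.96 FPKM in srl1-KO, against 2.5, 2.70 and 3.30 FPKM in non-KO, and its change did not pass the test (limma adjusted p = 0.107). The genotypes did not overlap, as at 47.1% of all tested loci in either direction. With quantile normalization SRL1 passed (log2 change -0.50, limma adjusted p = 0.0488). A transcript that remains does not settle whether the protein is lost. The leaf label fits the leaf blade markers, since summed Rubisco small subunit levels were 9163 to 10491 FPKM in srl1-KO and 10206 to 16319 FPKM in non-KO. Of 7 leaf blade markers 1 was called lower in srl1-KO, the Rubisco subunit RBCS3 (limma adjusted p = 0.0427), and none was called higher. Across all tested loci 11.9% were called lower and 15.3% higher. CAB2R, another of these markers, did not pass the test (limma adjusted p = 0.0523). It was at 1750, 3540 and 3010 FPKM in srl1-KO, against 1100, 943 and 1730 FPKM in non-KO, without overlap. The log2 change was positive for 4 of the 7 markers and negative for 3. The shoot meristem gene OSH1 was at or near 0 and the root gene RCc3 was listed at 0 in every library. Total FPKM per library ran from 598611 to 628270. Relative depth was read from the most common ratio to srl1-KO replicate 1 at loci above 0 and under 0.1 FPKM in both libraries. The other 5 libraries came out at 0.889 to 0.946 times the depth of srl1-KO replicate 1. Absolute depth is unknown.

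Of the 7 genes, 5 were higher in srl1-KO, namely CRY1a, CRY1b, CRY2, PIL13 and phyA, and none was lower. phyB and phyC did not pass the test. The rises were moderate, from 1.42-fold for CRY1b to 1.87-fold for PIL13 in mean FPKM. All 7 had an average of 1 FPKM or more across the libraries, the condition for testing. The test was limma on log2(FPKM + 1), with p-values adjusted by Benjamini-Hochberg across the 19556 loci tested and called under 0.05. Across those loci 27.2% were called, 15.3% as higher and 11.9% as lower in srl1-KO. That split, 2995 loci higher and 2326 lower, depended on the scaling, and with TMM factors it was 1850 higher and 2959 lower. The median log2 change was 0.50 over the 7 genes and 0.11 over all tested loci. The same 5 genes had every srl1-KO library above every non-KO library, a separation found in this direction at 29.4% of tested loci, in the other direction at 17.8% and in either at 47.1%. The count of 5 became 3 with TMM factors, with no filter and without srl1-KO replicate 3, and 2 on leaving out replicate 1 or replicate 2 of either genotype. CRY1a and CRY2 were called in each of these settings.

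**Figure D1:**
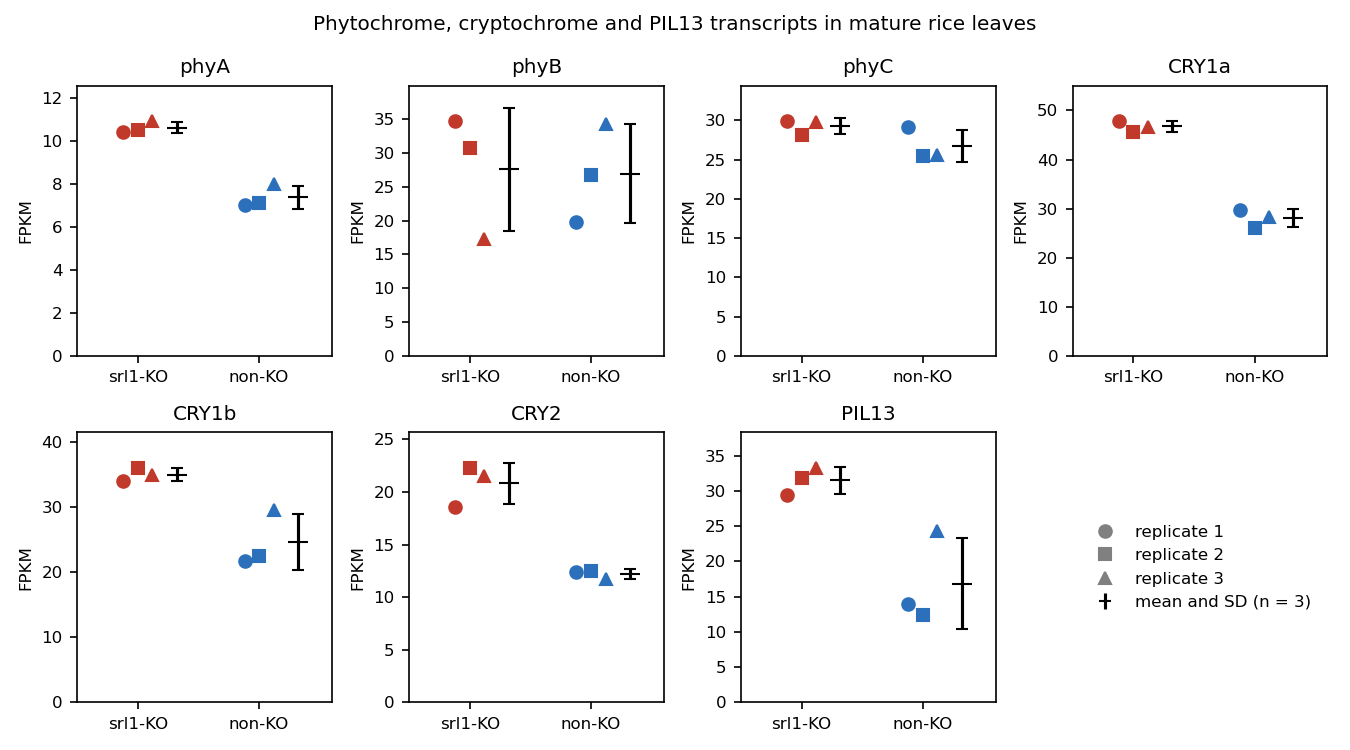
FPKM of each gene in the 3 srl1-KO libraries (red) and the 3 non-KO libraries (blue), with a marker shape per replicate number and the mean with its SD in black. The genotypes do not overlap for phyA, CRY1a, CRY1b, CRY2 and PIL13, while phyB spreads from 17.3 to 34.7 FPKM within srl1-KO alone.

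All 3 cryptochrome transcripts rose in srl1-KO. CRY1a (Os02g0573200, chromosome 2), a receptor that restrains elongation of seedlings in blue light, was at 47.8, 45.7 and 46.7 FPKM in srl1-KO, against 29.8, 26.1 and 28.2 FPKM in non-KO. The libraries of a genotype lay close together and the genotypes were far apart. Its mean was 46.7 ± 1.06 FPKM in srl1-KO and 28.0 ± 1.83 FPKM in non-KO (SD, n = 3 each), a 1.67-fold difference. On the log2(FPKM + 1) scale the change was 0.72 ± 0.09 (SE; limma adjusted p = 0.00287), with a 95% interval from 0.49 to 0.94.

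CRY2 (Os02g0625000, chromosome 2), known in rice as a promoter of flowering, had nearly the same estimated log2 change as CRY1a, from a lower level. It was at 18.6, 22.3 and 21.5 FPKM in srl1-KO, against 12.4, 12.5 and 11.7 FPKM in non-KO. No srl1-KO library came near the non-KO range. Its mean was 20.8 ± 1.97 FPKM in srl1-KO and 12.2 ± 0.46 FPKM in non-KO (SD, n = 3 each), or 1.70-fold higher in srl1-KO (change of 0.72 ± 0.11 in log2 units, SE; limma adjusted p = 0.00474). The calls of CRY1a and CRY2 held in all 16 alternative settings, with adjusted p up to 0.0189 for CRY1a and up to 0.0262 for CRY2.

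CRY1b (Os04g0452100, chromosome 4), the close relative of CRY1a, was at 34.0, 36.1 and 35.0 FPKM in srl1-KO, against 21.8, 22.5 and 29.6 FPKM in non-KO. The srl1-KO libraries were tight, and non-KO replicate 3 stood well above the other non-KO libraries without reaching them. The mean was 35.0 ± 1.01 FPKM in srl1-KO and 24.6 ± 4.33 FPKM in non-KO (SD, n = 3 each), and the log2 change of 0.50 ± 0.14 (SE) was close to the threshold (limma adjusted p = 0.0359). The call was lost with TMM factors (adjusted p = 0.0901), with no filter (adjusted p = 0.051), and on leaving out any of the libraries except non-KO replicate 3 (adjusted p from 0.0756 to 0.115). Without non-KO replicate 3 the log2 change was 0.64 (adjusted p = 0.0105).

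Taken as a family, the cryptochromes summed to 100, 104 and 103 FPKM in the srl1-KO libraries, against 64.0, 61.1 and 69.5 FPKM in the non-KO libraries. The sums did not overlap, and the ratio of their means was 1.58. Within the family the shares of each gene overlapped between genotypes. CRY1a held 45.6 ± 1.87% of the sum in srl1-KO and 43.3 ± 2.99% in non-KO, and CRY2 held 20.2 ± 1.53% in srl1-KO and 18.9 ± 1.90% in non-KO (SD, n = 3 each). CRY1b held 34.1 ± 0.404% in srl1-KO and 37.8 ± 4.39% in non-KO, where it reached 42.6% in replicate 3. CRY1a stood above CRY1b and CRY1b above CRY2 in 5 of the 6 libraries, the exception being non-KO replicate 3.

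Whether members of a family changed by different amounts was tested on the difference of their log2(FPKM + 1) values within each library. Of 4 such balances, none separated the genotypes. CRY2 over CRY1a averaged -1.14 ± 0.16 in srl1-KO and -1.14 ± 0.11 in non-KO (SD, n = 3 each; two-sided exact permutation p = 1, and 1 adjusted over the 4 balances). CRY1b over CRY1a averaged -0.41 ± 0.07 in srl1-KO and -0.19 ± 0.25 in non-KO (two-sided exact permutation p = 0.3, adjusted 0.6). With 3 libraries against 3 this test cannot give a p below 0.1, so it could not have passed the threshold.

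Among the phytochromes, phyA alone passed the test. phyA (Os03g0719800, chromosome 3), the receptor for far-red and very weak light, was at 10.4, 10.5 and 10.9 FPKM in srl1-KO, against 7.0, 7.10 and 7.99 FPKM in non-KO. Both genotypes were tight and did not overlap. The mean was 10.6 ± 0.274 FPKM in srl1-KO and 7.36 ± 0.544 FPKM in non-KO (SD, n = 3 each), or 1.44-fold higher in srl1-KO (change of 0.47 ± 0.10 in log2 units, SE; limma adjusted p = 0.017). The call was lost without srl1-KO replicate 1, srl1-KO replicate 2, non-KO replicate 1 or non-KO replicate 2 (adjusted p from 0.052 to 0.0647).

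phyC (Os03g0752100, chromosome 3), which is known in rice to act as a partner of phyB, was at 29.9, 28.1 and 29.8 FPKM in srl1-KO, against 29.1, 25.5 and 25.6 FPKM in non-KO. The ranges overlapped, since non-KO replicate 1 reached the srl1-KO level. Its log2 change was 0.13 ± 0.10 (SE; limma adjusted p = 0.371), with a 95% interval from -0.11 to 0.36. That interval ends below the phyA estimate of 0.47 but overlaps the phyA interval, from 0.23 to 0.72. With TMM factors the estimate was -0.02.

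phyB (Os03g0309200, chromosome 3), the main red light receptor, was the most variable of the 7 genes by residual spread. It was at 34.7, 30.7 and 17.3 FPKM in srl1-KO, against 19.8, 26.8 and 34.3 FPKM in non-KO. The lowest of the 6 values belonged to srl1-KO replicate 3, the next to non-KO replicate 1, and the highest values of the genotypes were almost equal. The means were 27.5 ± 9.11 FPKM in srl1-KO and 27.0 ± 7.25 FPKM in non-KO (SD, n = 3 each), and the residual spread on the log2 scale stood at percentile 87.8 of tested loci, against percentile 4.19 for phyA and 7.22 for phyC. Its log2 change was 0.01 ± 0.30 (SE; limma adjusted p = 0.99), and the 95% interval from -0.71 to 0.72 would hold a change close in size to that of CRY1a in either direction. Its sign turned with TMM factors and without srl1-KO replicate 1, srl1-KO replicate 2 or non-KO replicate 1.

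The difference in call between phyA and phyB is not a shown difference in response. The balance of phyB over phyA was 1.65, 1.46 and 0.62 in srl1-KO, against 1.38, 1.78 and 1.97 in non-KO, on the log2 scale. The genotypes overlapped (two-sided exact permutation p = 0.3, adjusted 0.6). The balance of phyC over phyB averaged 0.14 ± 0.53 in srl1-KO and 0.02 ± 0.48 in non-KO (SD, n = 3 each; two-sided exact permutation p = 0.7, adjusted 0.933).

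The phytochromes together summed to 75.0, 69.3 and 57.9 FPKM in srl1-KO, against 55.9, 59.4 and 67.9 FPKM in non-KO, with overlap. The share of phyA in this sum was 13.8%, 15.2% and 18.8% in srl1-KO, against 12.5%, 11.9% and 11.8% in non-KO, without overlap. Summed cryptochrome over summed phytochrome FPKM was 1.34, 1.5 and 1.78 in srl1-KO, against 1.14, 1.03 and 1.02 in non-KO. Every srl1-KO library therefore had more cryptochrome transcript for its phytochrome transcript than any non-KO library, as a description of the sums and without a test.

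**Figure D2:**
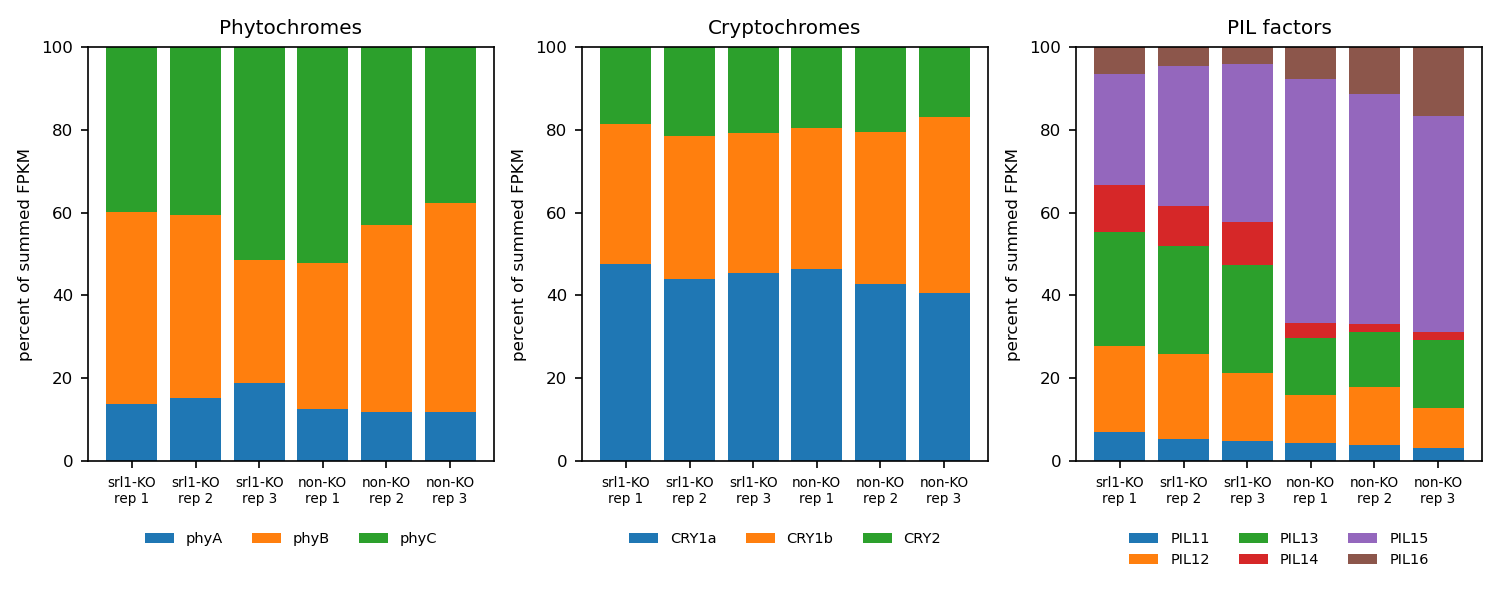
Share of each gene in the summed FPKM of its family, in percent, for each srl1-KO library (left) and non-KO library (right). The CRY1b share runs from 33.9% to 42.6%, the phyB share moves between 29.8% and 50.5%, and PIL15 takes 52.3% to 59.0% of the PIL sum in non-KO against 26.6% to 38.1% in srl1-KO.

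By level, CRY1a was the highest of the 7 in srl1-KO, followed by CRY1b, PIL13, phyC, phyB, CRY2 and phyA. In that order CRY1a and CRY1b did not overlap in range, nor did CRY1b and PIL13, nor CRY2 and phyA. PIL13 and phyC overlapped, as did phyC and phyB, and phyB and CRY2. In non-KO the order was CRY1a, phyB, phyC, CRY1b, PIL13, CRY2 and phyA, and each neighbouring pair overlapped in range except CRY2 and phyA. phyA was the lowest of the 7 in all 6 libraries. CRY1a was the highest in 4 libraries and phyB in non-KO replicates 2 and 3.

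PIL13 (Os03g0782500, chromosome 3), a bHLH factor known to promote internode elongation in rice, had the largest change of the 7. The libraries held 29.4, 31.8 and 33.3 FPKM in srl1-KO, against 13.9, 12.4 and 24.3 FPKM in non-KO. The genotypes did not overlap, but non-KO replicate 3 lay nearer to the srl1-KO libraries than to the other non-KO libraries. The mean was 31.5 ± 1.95 FPKM in srl1-KO and 16.9 ± 6.47 FPKM in non-KO (SD, n = 3 each), or 1.87-fold higher in srl1-KO (change of 0.92 ± 0.24 in log2 units, SE; limma adjusted p = 0.0322). The call was lost with TMM factors (adjusted p = 0.0533), with no filter (adjusted p = 0.058), and on leaving out any of the libraries except non-KO replicate 3 (adjusted p from 0.0689 to 0.0983). Without non-KO replicate 3 the log2 change was 1.20 (adjusted p = 0.00306).

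Non-KO replicate 3, high among the controls for PIL13 and CRY1b, also had the highest level of secondary-wall cell markers. The 3 cellulose synthases CESA4, CESA7 and CESA9 of fibre and xylem cells summed to 2.82 to 8.07 FPKM in srl1-KO and 2.05 to 18.4 FPKM in non-KO, the 18.4 FPKM being in that library. None of these markers was at 0 in any library and none of the 3 passed the test. The part of cell makeup in the changes of PIL13 and CRY1b was not tested, and in whole leaves a change in cell numbers and a change in RNA per cell cannot be told apart.

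**Figure D3:**
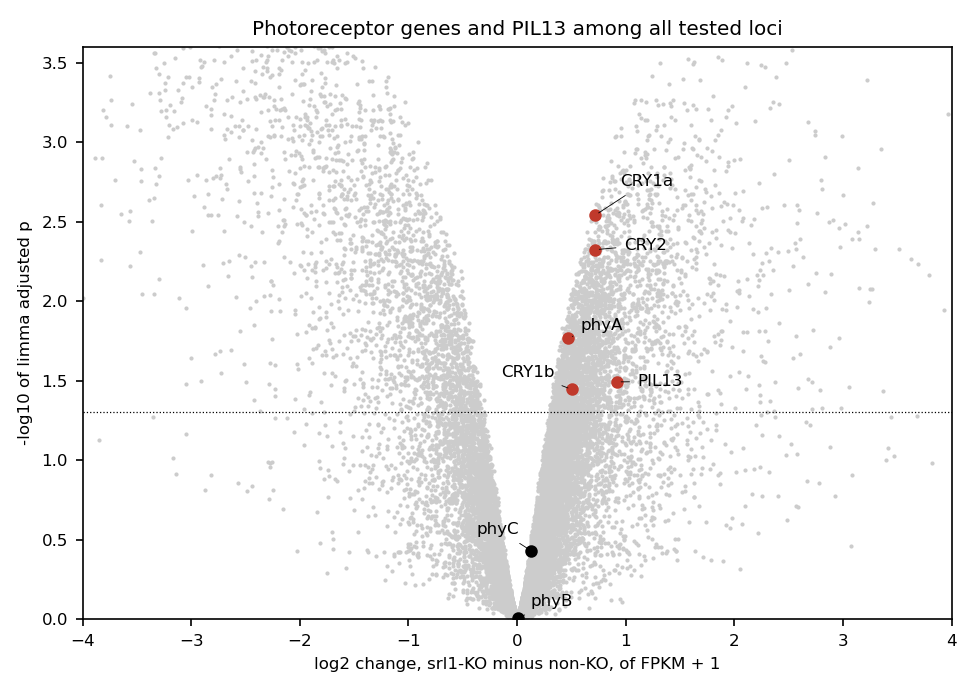
Log2 change (srl1-KO minus non-KO, of FPKM + 1) against -log10 of the limma adjusted p for tested loci (grey), with 232 loci outside the plotted range and the dotted line at an adjusted p of 0.05. The 5 red genes lie above the line on the side higher in srl1-KO, within the main body of called loci, and phyB and phyC (black) lie below it.

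Of the 5 other PIL factors 3 rose, none was called lower and 2 did not pass the test. Over all tested loci 15.3% were called higher and 11.9% lower. PIL14 (Os07g0143200) had the largest rise of any light-signalling gene tested here. It was at 12.1, 11.7 and 13.3 FPKM in srl1-KO, against 3.54, 1.90 and 2.64 FPKM in non-KO. That is a 4.6-fold difference in mean FPKM, with no library near the other genotype (log2 change 1.88 ± 0.18 SE; limma adjusted p = 0.000834). PIL12 (Os03g0639300) rose 1.75-fold to 22.7 ± 2.13 FPKM in srl1-KO, against 13.0 ± 1.05 FPKM in non-KO (SD, n = 3 each; limma adjusted p = 0.00474). PIL11 (Os12g0610200) rose 1.58-fold to 6.69 ± 0.757 FPKM in srl1-KO, against 4.22 ± 0.605 FPKM in non-KO (SD, n = 3 each; limma adjusted p = 0.0283). The call of PIL11 was lost with TMM factors, with no filter and without srl1-KO replicate 1, srl1-KO replicate 2, non-KO replicate 1 or non-KO replicate 2 (adjusted p from 0.0554 to 0.0893).

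PIL15 and PIL16 had lower values in srl1-KO without passing the test. PIL15 (Os01g0286100), known in rice for an effect on grain size, was at 28.3, 41.0 and 48.6 FPKM in srl1-KO, against 59.9, 51.4 and 76.7 FPKM in non-KO (limma adjusted p = 0.0744). Its genotypes did not overlap, as at 47.1% of all tested loci in either direction. With TMM factors PIL15 passed (log2 change -0.82, limma adjusted p = 0.0397). PIL16 (Os05g0139100), also named APG and known for an effect on grain length, was at 7.11, 5.57 and 5.30 FPKM in srl1-KO, against 7.90, 10.4 and 24.3 FPKM in non-KO, where non-KO replicate 3 again stood highest (limma adjusted p = 0.0974). Summed over all 6 PIL genes, the level was 119 ± 11.4 FPKM in srl1-KO and 114 ± 29.1 FPKM in non-KO (SD, n = 3 each). Within that sum PIL13 held 26.1% to 27.7% in srl1-KO, against 13.4% to 16.5% in non-KO. PIL14 held 9.65% to 11.4% in srl1-KO, against 1.79% to 3.49% in non-KO.

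Synthesis of the phytochrome chromophore was represented by 3 genes, of which 1 fell and 2 did not pass the test. Of all tested loci 11.9% were called lower and 15.3% higher. HY2 (Os01g0949400), the phytochromobilin synthase that makes the finished chromophore, was at 8.51, 8.42 and 9.71 FPKM in srl1-KO, against 15.9, 15.9 and 17.3 FPKM in non-KO. Every srl1-KO value was well below the non-KO range (log2 change -0.82 ± 0.10 SE; limma adjusted p = 0.00258), and the call held in all 16 alternative settings. SE5 (Os06g0603000), the haem oxygenase of the step before it, was at 31.8, 35.1 and 38.4 FPKM in srl1-KO, against 20.9, 25.7 and 30.0 FPKM in non-KO (limma adjusted p = 0.0689). HO2 (Os03g0395000), a haem oxygenase-like gene, was at 29.2, 29.2 and 36.0 FPKM in srl1-KO, against 61.0, 41.5 and 39.2 FPKM in non-KO (limma adjusted p = 0.0741). Neither overlapped between genotypes, as was true of 47.1% of all tested loci in either direction. SE5 passed with quantile normalization, with library weights and without non-KO replicate 3, and HO2 with TMM factors and with library weights.

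Downstream of the receptors, none of the 9 genes of the COP1-DET1 and HY5 group passed the limma test. This group holds the light-controlled ubiquitin ligase COP1 with its SPA partners, DET1 and DDB1, a COP9 signalosome subunit and 3 HY5-like bZIP factors. At an unadjusted p under 0.05 limma took in 1 of the 9, DDB1, against 41.4% of all tested loci. DDB1 also had the highest mean level of the group. DDB1 (Os05g0592400) was at 30.5, 27.9 and 27.0 FPKM in srl1-KO, against 24.3, 15.1 and 18.0 FPKM in non-KO, without overlap (log2 change 0.57 ± 0.18 SE; limma adjusted p = 0.0525). Such a separation, in either direction, was found at 47.1% of tested loci. DDB1 passed with the filter at a mean of 5 FPKM, with quantile normalization, with library weights and without non-KO replicate 1. COP1 (Os02g0771100) was at 13.8 ± 0.89 FPKM in srl1-KO and 13.0 ± 0.825 FPKM in non-KO (SD, n = 3 each), with a 95% interval of -0.17 to 0.32 around its log2 change.

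Among the photoreceptors of other classes, 3 of 8 tested genes rose and none was called lower. The shares called among all tested loci were 15.3% higher and 11.9% lower. The median log2 change of the 8 genes was 0.07, against 0.11 for all tested loci. FKF1 (Os11g0547000), a blue light receptor of the LOV and F-box type that acts on flowering time, was at 74.9, 82.7 and 86.6 FPKM in srl1-KO, against 47.8, 41.3 and 45.9 FPKM in non-KO. The rise was 1.81-fold without overlap (log2 change 0.84 ± 0.11 SE; limma adjusted p = 0.00265). The phototropins PHOT1A (Os12g0101800) and PHOT1B (Os11g0102200), blue light receptors of phototropism and chloroplast movement, rose 1.73-fold and 1.74-fold (limma adjusted p = 0.00854 and 0.00583). These paralogs lie at the duplicated ends of chromosomes 12 and 11, so fragments may have been split between them and their separate values are uncertain. PHOT2 (Os04g0304200), the most abundant gene of the group, was at 124 ± 3.15 FPKM in srl1-KO and 123 ± 11.2 FPKM in non-KO (SD, n = 3 each), with a 95% interval of the log2 change from -0.24 to 0.28. CPT1 (Os02g0568200), an NPH3-type partner of phototropins, had a mean below 1 FPKM and was not tested.

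None of the 3 photolyase family genes, the relatives of cryptochromes that repair or bind DNA, passed the limma test, and 0 did at an unadjusted p under 0.05, which 41.4% of all tested loci reached. PHR (Os10g0167600), the photolyase of cyclobutane pyrimidine dimers, had the highest level of them, at 12.6 ± 1.45 FPKM in srl1-KO and 12.2 ± 2.96 FPKM in non-KO (SD, n = 3 each), with a 95% interval of the log2 change from -0.36 to 0.49. Over all 28 tested genes of the wider light-signalling lists, 6 rose, 1 fell and 21 did not pass the test. In either direction 7 of 28 were called, against 27.2% of all tested loci. Called higher were 21.4%, against 15.3% of all tested loci, and called lower 1 of 28, against 11.9%. With TMM factors 5 were called higher and 3 lower. The median log2 change of the 28 genes was 0.07, against 0.11 for all tested loci.

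**Figure D4:**
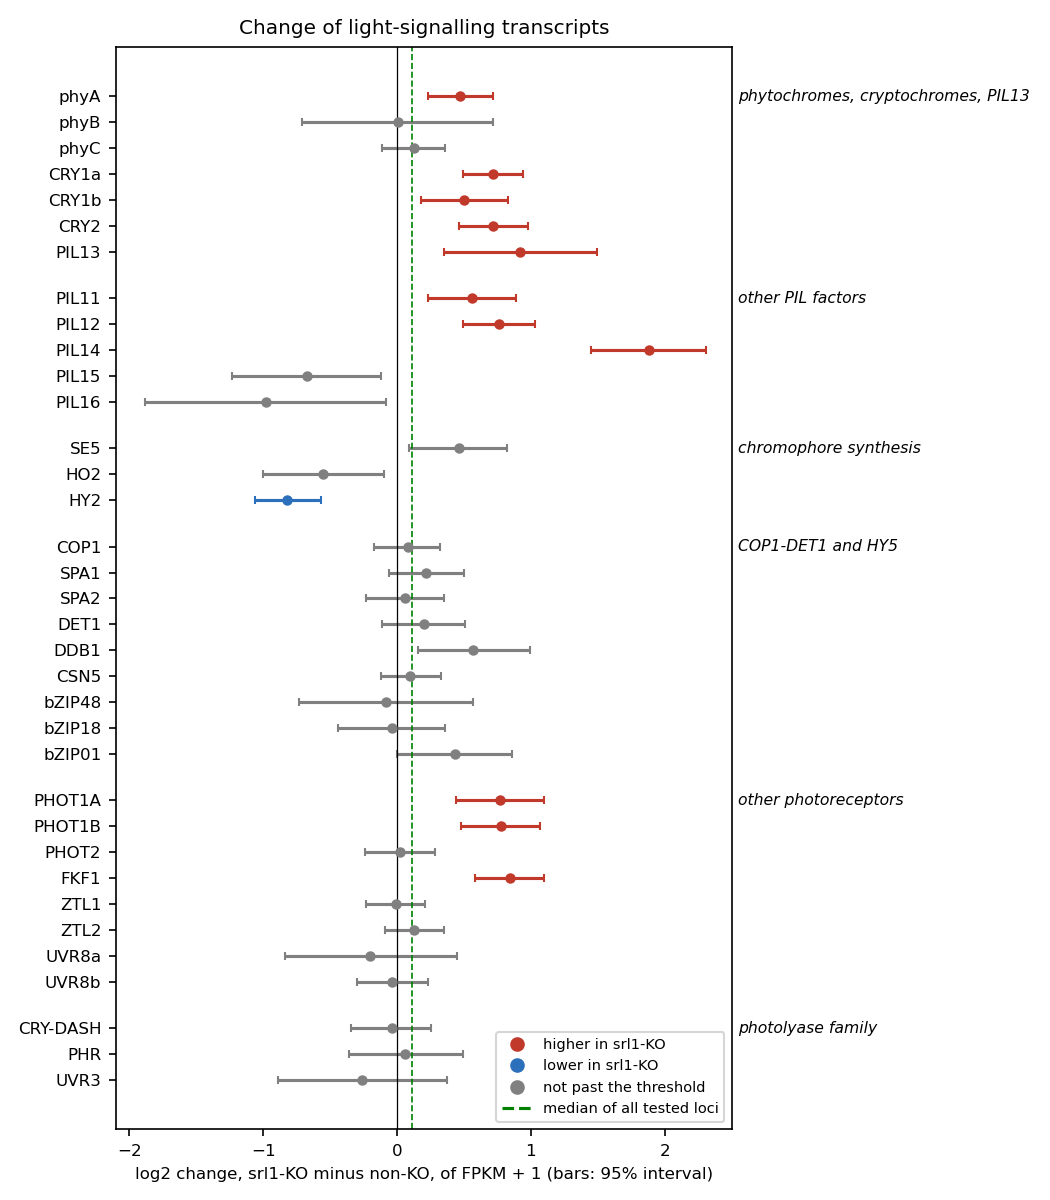
Log2 change (srl1-KO minus non-KO, of FPKM + 1) with its 95% interval for each tested light-signalling gene, grouped by role, with genes past the threshold in red (higher) or blue (lower). PIL14 stands farthest to the right at 1.88, HY2 is the one gene called lower, and the genes of the COP1-DET1 and HY5 group and of the photolyase family lie around the median of all tested loci (dashed), apart from DDB1 and bZIP01 to its right and UVR3 to its left.

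The genes whose pattern was most like that of each photoreceptor were looked for among the other 34 tested genes named here, by Pearson's r of log2(FPKM + 1) over the 6 libraries. CRY1a was most like PIL14 (r = 0.997), CRY1b and PIL13 were most like each other (r = 0.987), CRY2 was most like FKF1 (r = 0.977) and phyA most like PHOT1B (r = 0.979). For phyC the nearest was DDB1 (r = 0.921), and for phyB it was PIL16 with r = 0.469. All values come from the same libraries and include the step between genotypes. Many loci outside these lists were closer still. Their number was 10 for CRY1a, 22 for PIL13, 41 for CRY1b, 103 for phyC, 203 for CRY2, 242 for phyA and 2648 for phyB. After the genotype means were taken out, the r was 0.96 for CRY1b with PIL13 and 0.93 for CRY1a with PIL14. It was 0.86 for phyC with DDB1, 0.72 for phyA with PHOT1B, 0.69 for phyB with PIL16 and 0.49 for CRY2 with FKF1. These values rest on 6 libraries, with fewer free to vary once the genotype means were out, and on partners already picked for their r. How many other loci reach them was not counted. Non-KO replicate 3 was the highest control library for both CRY1b and PIL13.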

How the data were processed

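Poly(A) RNA from 1 µg of total RNA per sample was sequenced, per the labels' protocols. The authors deposited FPKM values, 1 column per library, per the file headers. HISAT2, DESeq2 and the build IRGSP-1.0 are named, without roles, per the submitters' processing notes. How the FPKM were made, from which annotation and with what strand setting, is not given in the sources used here. Counts were not recovered, so no count test was run.

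Loci averaging 1 FPKM or more were tested on log2(FPKM + 1) with limma 3.58.1 in R 4.3.3 (mean-variance trend, genotype as the only term, two-sided, adjusted p under 0.05). The fit was tested on simulated data. Exact permutation tests used scipy 1.17.1. Changes are srl1-KO minus non-KO and are understated for low loci. Alternatives were other pseudocounts, filters, scalings, weights, a robust fit, a replicate block and leaving out each library.

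Members and lists were chosen with earlier results of these data known. Named genes are the 7 members, each listed gene past the threshold, the most abundant gene of a list with none, the most alike gene of each member, and SRL1. PIL15, PIL16, SE5, HO2, PHOT2, COP1, CPT1 and CAB2R were named after their values were seen. Identifiers came from general knowledge. The reference table (ASM3414082v1) places 14 of the 36 light-signalling names on the chromosome of the identifier, the phytochromes among them, and does not hold the other 22, which include the cryptochromes and PIL13. No sequence was used here.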

Additional observations from a re-analysis of the deposited data

How the results depend on the processing

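With TMM factors the median log2 change of all loci moved by -0.13, so changes are also given relative to the median of all loci, which were 0.61 for CRY1a, 0.61 for CRY2, 0.39 for CRY1b, 0.81 for PIL13, 0.36 for phyA, 0.01 for phyC and -0.11 for phyB. The number of the 7 genes called was 5, and it became 3 with no filter, with TMM factors and with the replicate block. Without 1 library it was 2 to 5. All loci called numbered 5321, and 2943 to 4649 without 1 library, the lowest being without srl1-KO replicate 2. The values showed no pairing of the libraries by the shared numbers of the titles. The deviations of same-numbered libraries correlated at -0.05, 0.05 and 0.02, and 0 of 6 libraries correlated best with their own number. That does not settle whether same-numbered libraries were handled together. With the replicate block, phyA (log2 change 0.47, adjusted p = 0.0528), CRY1b (0.50, adjusted p = 0.0699) and PIL11 (0.56, adjusted p = 0.0649) missed the threshold. Of the other light-signalling genes it was run for, and SRL1, none changed its call. CRY1b was at 0.36 with TMM factors and 0.50 with no filter, and PIL13 at 0.78 with TMM factors and 0.92 with no filter, none of them past the threshold. Without 1 library the log2 change ran from 0.44 to 0.53 for phyA, from 0.43 to 0.64 for CRY1b and from 0.74 to 1.20 for PIL13, and from -0.19 to 0.30 for phyB. Signs turned with TMM factors for phyB (-0.14), phyC (-0.02), COP1 (-0.06), PHOT2 (-0.13) and PHR (-0.08), and without 1 library for PHOT2 (-0.05 to 0.09) and PHR (-0.05 to 0.24). The causes were not tested, apart from fewer libraries or degrees of freedom by construction. Without 1 library the balance of phyC over phyB ran from -0.18 to 0.38, so that its sign turned, and phyB over phyA ran from -0.67 to -0.15. CRY1b over CRY1a ran from -0.33 to -0.08 and CRY2 over CRY1a from -0.07 to 0.09. Each move was smaller than the spread between libraries. Absolute depth is unknown and sets no limit that can be given.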
